A study of Mus musculus with 15 samples.

Results

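LSK cells are bone marrow cells that lack the surface markers of mature blood lineages (Lin-) and carry Sca1 and cKit, a fraction rich in blood stem cells and multipotent progenitors. Described here is the transcriptome of these cells in wild-type (WT) mice, measured in 3 RNA sequencing libraries of the 15 in the series and chosen by the genotype label alone, not by any measured value. The other 12 libraries, 3 per group, hold LSK cells of Tet2(-/-) mice, Nras(G12D) mice, Tet2(-/-) Nras(G12D) mice without leukemia and Tet2(-/-) Nras(G12D) mice with leukemia. They enter only where the wild type is set against them. Tet2 encodes an enzyme that oxidizes methylated cytosine, and the G12D change keeps the small GTPase encoded by Nras in its active form. All mice are labelled C57BL/6, and the marrow came from leg and hip bones, with the red cells lysed before the sort. The design text calls the mutations conditional and specific to blood-forming tissue. The mice of the methylation experiment it describes were 6 months old, and the age behind the RNA libraries is not stated apart from this. No recombinase or promoter is named, and whether the wild-type mice carried a recombinase is not given in the sources used here. The labels do not tie the 3 libraries to separate animals, so every SD and test below measures the spread between libraries, which may be technical.

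Blood stem cells in the adult marrow divide rarely and are held in place by adhesion receptors and by signals through cKit, the receptor for stem cell factor. Their multipotent offspring, which make up most of an LSK sort, divide often and begin to express low levels of genes of the myeloid, lymphoid and erythroid programmes before they commit, a state known as lineage priming. A small set of transcription factors, among them Runx1, Gata2, Erg, Fli1, Meis1, Hlf and Mecom, is known to hold the undifferentiated state.

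The deposited values are log2 CPM (read counts scaled to a library of a fixed size), and levels are given here as CPM. The 3 wild-type libraries held 23821717, 24629195 and 26079674 counts. The deposited CPM were scaled to library sizes of 26240209, 25559334 and 27316714. On that scale 3 counts, taken as the floor of detection for counting error, corresponded to 0.114, 0.117 and 0.110 CPM. The method adds part of a count to every gene, so a gene with 0 counts is listed at about 0.02 CPM. Values given 3 in a row are always libraries WT 1, WT 2 and WT 3 in this order, errors are SDs over these 3 libraries (n = 3), and a gene is called expressed at 1 CPM or more in all 3. CPM grows with transcript length, so a rank or a class by CPM describes the share of reads, and levels of different genes are compared per kb of exon, using the union of all annotated exons in GENCODE M21 (GRCm38). That union can be longer than the transcript the cells make, which lowers the value per kb. Levels in sorted bulk cells do not tell fewer expressing cells from less RNA per cell.

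Of 44827 genes in the table, 12472 (27.8%) were expressed in the wild-type libraries, and of 21103 protein-coding genes 11125 (52.7%) were. These shares, and the 5.69% of all genes with a mean of 100 CPM or more, are the background for each list count below. The median level of the 12472 expressed genes was 32.0 CPM. A mean of 1000 CPM or more was reached by 51 expressed genes, which held 10.6% of the summed CPM of all genes in the table, while the 2499 genes between 100 and 1000 CPM held 58.3%. Below them stood 6555 genes of 10 to 100 CPM with 29.1% and 3367 genes under 10 CPM with 1.56%. Per kb of exon, the highest named gene outside the immunoglobulin loci was B2m, the light chain of class I MHC, at 3174 ± 105 CPM per kb. It was followed by the translation elongation factor Eef1a1 at 1659 ± 73.8, the glutathione peroxidase Gpx1 at 1216 ± 149.8, the membrane protein gene Serinc3 at 1072 ± 57.95 and the ribosomal protein genes Rpl4 and Rps3a1 at 943 ± 37.7 and 882 ± 104 CPM per kb. By CPM, the 20 highest named genes also held Adgrg1, an adhesion receptor of stem cells also known as Gpr56, at 2944, 2655 and 3192, and the granule enzyme myeloperoxidase, Mpo, at 1935, 2596 and 2657. Mitochondrially encoded genes took 1.05 to 1.56% of the counts of a library, and genes of cytosolic ribosomal proteins, of which 79 of 83 were expressed, took 2.36 to 2.94%. The 100 highest genes of a library held 14.4 to 16.2% of its counts.

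**Figure D1:**
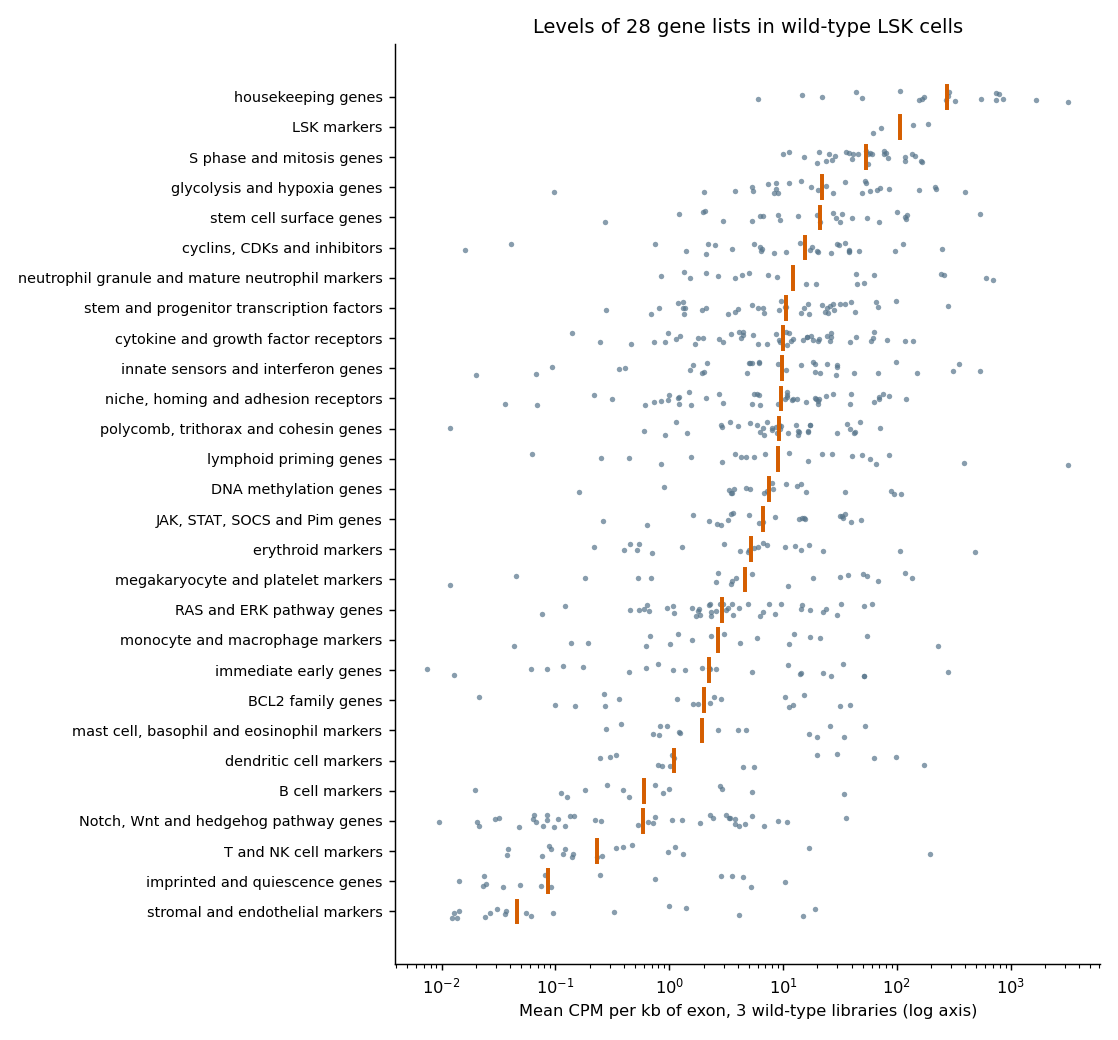
Mean level of each gene of 28 lists in the 3 wild-type libraries, in CPM per kb of exon on a log axis, with 1 point per gene and a bar at the median of each list. The median of the housekeeping genes was 276 CPM per kb and that of the S phase and mitosis genes 53.9, while the T and NK cell list and the stromal and endothelial list had medians of 0.232 and 0.0460.

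Kit and Ly6a, whose proteins were used for the sort, and Cd34 and Flt3, which divide LSK cells into stem cells and progenitors, were all expressed. Cd34, a sialomucin that separates stem cells from progenitors within mouse LSK cells, stood at 1399, 1307 and 1428 CPM (chr1:194938819-194961279, GRCm38). Kit (chr5:75574916-75656722), which encodes cKit, stood at 1170.3, 1129.7 and 1421 CPM. Both were at a similar height in all 3 libraries. Flt3 (chr5:147330741-147400489), a receptor that rises as stem cells become multipotent progenitors, was at 273, 439 and 424 CPM, lowest in WT 1. Ly6a (chr15:74994877-74998031), which encodes Sca1, stood at 103, 87.5 and 73.6 CPM. Per kb of exon the order was Cd34 at 189 ± 8.699, Kit at 139 ± 17.7, Ly6a at 73.1 ± 12.3 and Flt3 at 61.3 ± 14.8. The libraries of Cd34 and Kit did not overlap, nor did those of Kit and Ly6a, while those of Ly6a and Flt3 did.

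The promoters of 3 of these marker genes and of 3 genes of other roles show the range of sequence found upstream of genes that LSK cells express at high levels. Each line gives the 250 bases before the RefSeq start (GRCm38.p6) on the strand of the gene, with CG pairs and the ETS motif CCGGAAG, read on either strand, in capitals. Kit lies at chr5:75574737-75574986 on the plus strand (the first of 2 listed starts), Cd34 at chr1:194938571-194938820 on the plus strand, Flt3 at chr5:147400490-147400739 on the minus strand, the homeobox gene Meis1 at chr11:19018970-19019219 on the minus strand, Mpo at chr11:87793534-87793783 on the plus strand, and Dntt, the template-free DNA polymerase of early lymphoid cells, at chr19:41029025-41029274 on the plus strand.
Kit: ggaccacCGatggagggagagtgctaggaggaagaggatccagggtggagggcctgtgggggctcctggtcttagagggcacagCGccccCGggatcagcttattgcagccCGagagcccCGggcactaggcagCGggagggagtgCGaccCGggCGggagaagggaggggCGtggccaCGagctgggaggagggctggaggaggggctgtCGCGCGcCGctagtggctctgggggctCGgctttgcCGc
Cd34: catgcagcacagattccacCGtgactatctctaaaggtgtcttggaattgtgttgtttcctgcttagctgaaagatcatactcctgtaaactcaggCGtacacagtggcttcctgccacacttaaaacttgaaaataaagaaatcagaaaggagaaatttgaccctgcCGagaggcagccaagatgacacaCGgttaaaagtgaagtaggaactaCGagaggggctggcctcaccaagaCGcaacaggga
Flt3: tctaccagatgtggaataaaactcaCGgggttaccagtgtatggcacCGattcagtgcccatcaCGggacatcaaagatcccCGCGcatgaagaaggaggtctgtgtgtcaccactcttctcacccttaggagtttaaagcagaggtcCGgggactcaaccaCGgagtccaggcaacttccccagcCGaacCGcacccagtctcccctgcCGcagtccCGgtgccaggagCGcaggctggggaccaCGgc
Meis1: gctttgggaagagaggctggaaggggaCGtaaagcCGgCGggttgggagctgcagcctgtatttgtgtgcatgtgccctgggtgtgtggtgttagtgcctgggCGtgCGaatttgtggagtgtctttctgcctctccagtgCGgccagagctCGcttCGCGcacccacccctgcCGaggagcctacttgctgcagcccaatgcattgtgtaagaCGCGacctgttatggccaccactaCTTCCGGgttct
Mpo: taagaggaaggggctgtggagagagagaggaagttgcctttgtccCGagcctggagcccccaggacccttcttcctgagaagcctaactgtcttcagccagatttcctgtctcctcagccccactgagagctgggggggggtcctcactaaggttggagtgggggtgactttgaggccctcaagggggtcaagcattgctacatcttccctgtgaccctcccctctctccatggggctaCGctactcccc
Dntt: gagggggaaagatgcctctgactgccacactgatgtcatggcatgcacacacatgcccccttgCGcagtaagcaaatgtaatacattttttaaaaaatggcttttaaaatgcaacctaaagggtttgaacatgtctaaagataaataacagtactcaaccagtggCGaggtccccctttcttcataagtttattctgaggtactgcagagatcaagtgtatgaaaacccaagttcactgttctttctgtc

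Kit had 17 CG pairs in this window, Flt3 and Meis1 had 13 each, Cd34 had 6, and Mpo and Dntt had 2 each. Meis1 alone of the 6 held the ETS motif, as CTTCCGG on the printed strand. Over all 13411 protein-coding genes with a single listed start, the median was 10 CG pairs. The 7045 of them that were expressed had a median of 16 CG pairs and 60% GC, and the 2579 with 0 counts in all 3 wild-type libraries had 2 CG pairs and 44% GC. In these windows Mpo and Dntt therefore had as few CG pairs as the median promoter of a silent gene. The windows follow the RefSeq starts, and the GENCODE M21 genes of Kit and Mpo begin further upstream. Part of the Kit window and most of the Mpo window thus lie inside the gene as GENCODE M21 lists it. The ETS motif stood in 15.5% of expressed promoters, 1.74% of promoters of genes with 0 counts and 9.48% of all. The GC box GGGCGG, read on both strands, was in 61.1% of expressed promoters, 12.5% of those with 0 counts and 43.8% of all. TATAAA went the other way, with 5.89% of expressed promoters, 26.8% of those with 0 counts and 12.6% of all, and so did the GATA motif AGATAA, with 5.56%, 15.9% and 9.09%. The 27 promoters of genes over 1000 CPM did not follow these directions throughout, since 25.9% held TATAAA and 7.41% the ETS motif. CCAAT was about as frequent in each, at 37.5%, 37.2% and 36.6%. GC content differs between these classes too, and its part in the motif counts was not tested.

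Of 25 surface genes linked to stem cells, 24 were expressed and 13 had a mean of 100 CPM or more. Adgrg1 led the list at 541 ± 49.6 CPM per kb. Cd48, which multipotent progenitors carry and long-term stem cells lack, stood at 149, 158 and 131 CPM. Slamf1, which encodes the stem cell marker CD150, stood at 11.9, 11.3 and 13.1 CPM, or 1.96 CPM per kb of exon against 123 for Cd48, and Procr, which encodes EPCR, another marker of the most primitive cells, stood at 44.5, 37.4 and 38.1 CPM. Fgd5, whose expression marks stem cells, was at 13.7, 12.7 and 12.7 CPM. Tek, the receptor for angiopoietin, was at 43.96, 38.5 and 49.7, the endothelial and stem cell adhesion gene Esam at 86.8, 68.4 and 78.8, and Cd27, a costimulatory receptor of multipotent progenitors, at 263, 218 and 221 CPM. All of these varied little over the libraries, with no gene of the list reaching a range of 2-fold (log2 range over 1) among the 22 with a mean of 10 CPM or more. The 1 gene below the limit was Thy1, at 0.896, 0.998 and 0.567 CPM.

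**Figure D2:**
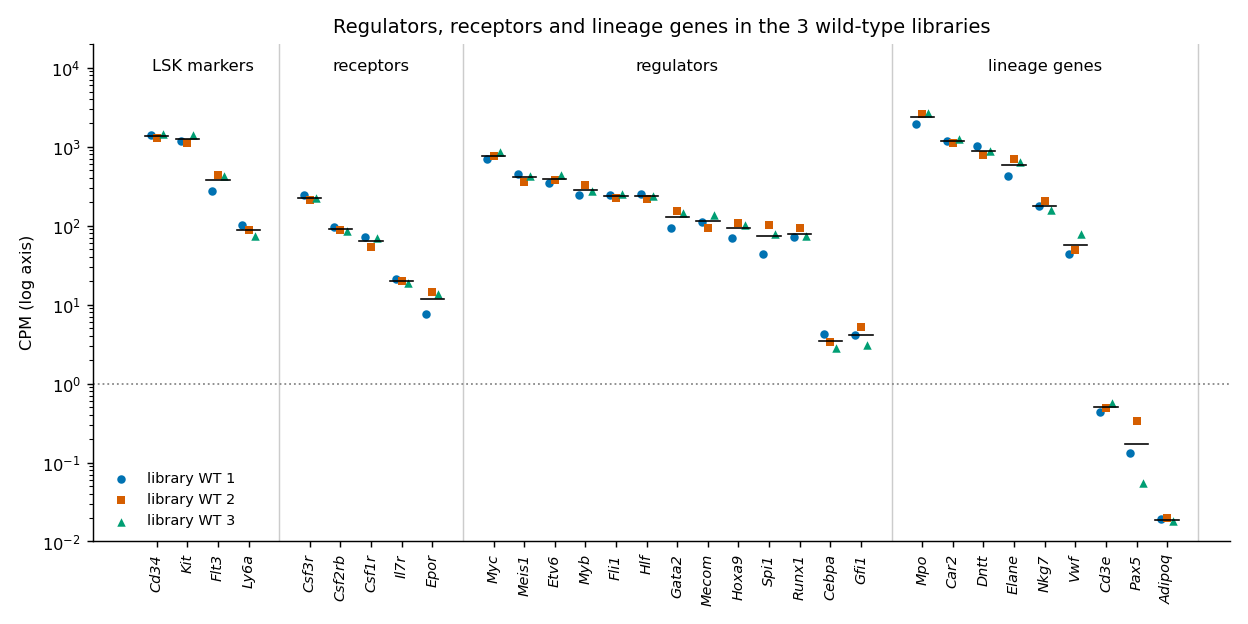
CPM of 31 genes in each of the 3 wild-type libraries on a log axis, with a line at the mean and a dotted line at 1 CPM, the limit for a gene called expressed. LSK markers and growth factor receptors lay above 7 CPM in every library, whereas Cebpa and Gfi1 stayed under 6 CPM and the lineage genes ran from Mpo, at 1935 to 2657 CPM, to Adipoq, which had 0 counts.

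Transcription factors of stem and progenitor cells were expressed for 39 of 40 listed genes, with 11 at a mean of 100 CPM or more. Myc, which drives growth and division, was the highest per kb at 283 ± 26.3 and stood at 704, 759 and 846 CPM. Lmo2, a scaffold that joins Tal1, Lyl1 and GATA factors, was at 144, 297 and 193 CPM, and its partners Tal1 and Lyl1 were at 15.6, 21.3 and 12.4 and 18.3, 20.1 and 19.1. Per kb of exon these partners were lower, with 3.75 and 10.6 against 97.5 CPM per kb. Lmo2 was lowest in WT 1 and highest in WT 2. The ETS factors Fli1, Erg and Etv6 stood at 244, 223 and 249, 99.4, 95.4 and 93.002 and 349, 383 and 435 CPM, close together across libraries. Spi1, the ETS factor PU.1 of myeloid and B cells, was more variable at 43.96, 102 and 78.3 CPM. Meis1, a partner of HOX proteins, reached 458, 362 and 423 CPM. Hlf, a factor of the most primitive cells, was at 254, 217 and 238, Mecom, which encodes Evi1, at 112, 92.9 and 138, and Prdm16 at 30.05, 30.9 and 30.9 CPM. Gata2 exceeded Gata1 in each library per kb, at 24.1 ± 6.09 against 12.8 ± 1.37 CPM per kb, without overlap. Of the factors of committed myeloid cells, Cebpa stood at 4.29, 3.35 and 2.84 and Gfi1 at 4.17, 5.26 and 3.06 CPM. Gfi1b, the factor of erythroid and megakaryocytic cells, was at 90.1, 54.1 and 91.6 CPM, or 42.9 CPM per kb against 1.31 for Gfi1. Tcf15 was the single listed factor under the limit, at 0.324, 0.372 and 0.128 CPM.

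HOX genes sit in 4 clusters whose order along the chromosome follows their expression along the body axis, and the A cluster is the main one used by blood progenitors. In the wild-type libraries 7 of 39 HOX genes were expressed, 5 of 11 in the A cluster, 2 of 10 in the B cluster and none of the 9 in C or the 9 in D, against 52.7% of protein-coding genes. Hoxa9 was the highest at 70.1, 109 and 103 CPM, followed by Hoxa7 at 26.7, 32.5 and 31.1 and Hoxa10 at 20.4, 22.4 and 23.8. Per kb these were 16.8 ± 3.72, 10.5 ± 1.05 and 6.79 ± 0.534, with no overlap between neighbours in this order. Hoxa3, Hoxa5, Hoxb5 and Hoxb4, the last a gene used to expand stem cells, lay between 1.67 and 5.11 CPM. Hoxa11 and Hoxa13 had 0 counts in all 3 libraries.

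Receptors for cytokines and growth factors were expressed for 47 of 48 listed genes. Csf3r, the receptor for G-CSF, stood at 62.6 ± 5.53 CPM per kb and overlapped with Flt3. Then came a group of receptors whose neighbours overlapped, with Csf2rb, the common beta chain, at 12.3 ± 0.749, Csf1r, the M-CSF receptor, at 11.2 ± 1.77, Csf2ra at 9.24 ± 3.68, the erythropoietin receptor Epor at 5.98 ± 1.83 and Il3ra at 5.41 ± 1.03 CPM per kb. Il7r, which common lymphoid progenitors need, overlapped with Il3ra at 4.26 ± 0.212. Il6ra, at 0.978 ± 0.217, was the lowest of the 11 receptors ranked here per kb, which were chosen from the 48 listed. In CPM, Epor stood at 7.72, 14.4 and 13.5 and Csf2ra at 14.6, 34.6 and 30.5, both lowest in WT 1, whereas Il7r hardly varied at 20.9, 19.7 and 18.9. Ifngr1, the ligand-binding chain of the interferon gamma receptor, stood at 212, 242 and 250.4 CPM, and the partner chain Ifngr2, more variable, at 8.82, 23.2 and 14.3 CPM. Pdgfrb, a receptor best known from pericytes, was present at 81.3, 70.8 and 95.02 CPM, as was Tie1 at 132, 117 and 139. Lifr, the receptor for leukemia inhibitory factor, fell below the limit in WT 3, at 2.08, 1.51 and 0.897 CPM.

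Of 46 receptors for homing and adhesion, 43 were expressed. The chemokine receptor Cxcr4, which keeps stem cells in the marrow, stood at 36.3, 37.9 and 37.3 CPM. The integrins Itga4 and Itgb1, which together bind VCAM1 on stroma, were at 262, 250.4 and 282 and 209, 274 and 293 CPM. Selplg, a ligand of selectins, stood at 336, 309 and 328 CPM. Cd47, which protects cells from phagocytosis, ranged more widely, at 297, 567 and 435. The Notch and Wnt receptors were used in part. Notch2 exceeded Notch1 per kb, at 9.05 ± 0.503 against 3.78 ± 0.359, and Notch3 and Notch4 stood below 1 CPM in every library. The Notch target genes Hes1, Hey1, Nrarp and Dtx1 lay at or under 0.176 CPM, close to the floor of 3 counts. Ctnnb1, which encodes beta-catenin, was at 130.3, 241 and 189 CPM, and its target Axin2 at 0.133, 0.4499 and 0.458. In all, 22 of 40 genes of the Notch, Wnt and hedgehog pathways were expressed.

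The RAS and ERK pathway, which carries the signal of cKit and of other cytokine receptors to the nucleus, was expressed for 40 of 42 listed genes, though most members were of moderate level, with 6 at 100 CPM or more. Nras (chr3:103058285-103067914) stood at 179, 172 and 167 CPM, or 32.5 ± 1.12 per kb. Hras stood at 0.598 ± 0.179 CPM per kb, below Nras without overlap, and had 2.46, 2.76 and 1.48 CPM. Among the RAF kinases Araf stood at 22.4 ± 1.84 and Braf at 2.96 ± 0.182 CPM per kb, without overlap. The highest member per kb was Rasa3, a GAP that switches RAS and RAP proteins off, at 225, 329.9 and 372 CPM. Dusp6, the ERK phosphatase induced by ERK itself, stood at 124, 173 and 186 CPM, and the feedback inhibitors Spry1, Spry2 and Spry4 were between 1.31 and 4.09 CPM. Nf1, the RAS GAP lost in juvenile myelomonocytic leukemia, was at 9.05, 9.64 and 7.19 CPM.

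JAK kinases and STAT factors act directly below the cytokine receptors, and 22 of 23 listed genes of this pathway were expressed. Jak1 stood at 39.4 ± 9.57 CPM per kb and Jak3 at 34.7 ± 15.8, with libraries that overlapped. Jak2, the kinase that Epor uses, was the lowest at 6.69 ± 0.649 and hardly varied, at 37.02, 33.4 and 30.5 CPM. Jak3 differed 2.76-fold between libraries, at 88.4, 244 and 224 CPM, lowest in WT 1. Stat6 led the STAT genes at 48.6 ± 4.14 per kb, and Stat5b, Stat3 and Stat5a followed with overlapping values from 31.7 to 33.4. Of the feedback inhibitors, Cish stood at 21.5, 18.3 and 27.3 CPM, Socs2 at 5.54, 5.77 and 7.05 and Socs1 at 0.362, 1.35 and 0.567.

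Enzymes that write and remove DNA methylation were expressed for 19 of 20 listed genes. Dnmt1, which copies methylation after replication, stood at 88.6 ± 12.7 CPM per kb, above the de novo enzymes Dnmt3b at 10.5 ± 1.58 and Dnmt3a at 7.92 ± 0.2997. These 3 did not overlap, while in CPM Dnmt3a, the longer gene, was at 136, 134 and 126 and Dnmt3b at 46.1, 62.2 and 52.99. Uhrf1, which guides Dnmt1 to newly made DNA, was at 365, 419 and 426 CPM. Of the TET dioxygenases Tet1 was the highest per kb at 7.22 ± 0.144, followed by Tet3 at 4.76 ± 0.647 and Tet2 at 3.497 ± 0.442, again without overlap. In CPM they stood at 114, 109.5 and 111, 74.1, 91.9 and 72.4 and 65.2, 50.7 and 61.04. Idh2, whose product makes the cofactor of the TET enzymes, ranged from 148 to 382 CPM with WT 1 lowest. Dnmt3l, the germline partner of the de novo enzymes, was the single gene under the limit, at 0.0953, 0.606 and 0.7505 CPM. The polycomb, trithorax and cohesin list was expressed for 38 of 39 genes. Its highest members per kb were the cohesin genes Smc1a, at 409.5, 429 and 396 CPM, and Smc3, at 217, 302 and 273 CPM. Ezh2 and Ezh1, the alternative catalytic subunits of polycomb complex PRC2, overlapped at 13.5 ± 3.73 and 12.9 ± 1.32 CPM per kb. Asxl1 stood at 55.1, 56.8 and 48.96 and its paralog Asxl3 at 0.133, 0.215 and 0.201 CPM.

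All 29 genes of S phase and mitosis were expressed, 27 of them at 100 CPM or more, with a median of 179 CPM, against 5.69% of all genes at that level. The replication helicase genes Mcm3, Mcm5 and Mcm7 stood at 576, 636 and 635, 480.4, 567 and 562 and 582, 675 and 651 CPM. Mki67, which marks dividing cells, was at 269, 327 and 274, and Top2a, the topoisomerase of mitotic chromosomes, at 684, 789 and 761 CPM. Mcm6 differed 2.75-fold between libraries, at 392, 1082 and 846 CPM, lowest in WT 1 as were Cdt1 at 30.2, 92.04 and 65.4 and Cdc20 at 70.4, 188 and 176. Cdk4 was the highest cyclin-dependent kinase at 251 ± 11.05 CPM per kb, and Cdk1, Cdk6 and Cdk2 lay between 29.7 and 38.2. Ccnd2 was the main D cyclin at 46.5 ± 5.83, above Ccnd3 at 17.98 ± 5.04 and Ccnd1 at 6.25 ± 1.796, without overlap. Among the inhibitors, Cdkn2a, which encodes p16 and p19ARF, had 0 counts in all 3 libraries, which allows up to 0.110 to 0.117 CPM, and Cdkn1c, which encodes p57 of quiescent stem cells, stood at 1.28, 2.01 and 1.34 CPM. Cdkn1b, which encodes p27, was at 29.1, 31.3 and 27.5 CPM. Of 16 imprinted genes linked to quiescence 6 were expressed, led per kb by Impact at 57.1, 47.4 and 54.1 and Grb10 at 42.8, 45.4 and 54.97 CPM, and H19, Igf2, Dlk1 and Meg3 stayed under 1 CPM. In the list of glycolysis and hypoxia genes 28 of 29 were expressed, 13 at 100 CPM or more, with a median of 91.0 CPM. Ldha stood at 1342, 1320.1 and 1267 and Pkm at 1018, 1114 and 1129.7 CPM. The apoptosis inhibitor Bcl2 was at 131, 150.4 and 135 CPM within a family of which 13 of 18 were expressed. Of 26 immediate early genes 19 were expressed, 10 had a mean of 10 CPM or more and 2, Myc among them, 100 CPM or more. The median of this list was 7.87 CPM, with Fos at 29.7, 39.7 and 30.5 and Egr1 at 5.96, 12.2 and 8.15 CPM.

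In the neutrophil list 19 of 20 genes were expressed. The primary granule genes made by early myeloid progenitors led it, with Mpo (chr11:87793581-87804413) at 1935, 2596 and 2657 CPM, elastase, Elane, at 429, 706 and 649, proteinase 3, Prtn3, at 413, 541 and 404, and cathepsin G, Ctsg, at 219, 276 and 259 CPM. Lactoferrin, Ltf, was at 27.2, 39.7 and 23.7, Ngp at 49.5, 76.5 and 35.4, S100a9 at 32.7, 44.1 and 21.9, and Ly6g, the surface marker of mature neutrophils, at 0.934, 1.08 and 0.384 CPM. Per kb of exon these 4 genes of later stages had means of 8.75, 44.03, 63.03 and 0.847 CPM, under the 243 to 699.8 of the primary granule genes. All 4 were highest in WT 2 and lowest in WT 3, and 6 of the 13 genes of this list with a mean of 10 CPM or more had a log2 range over 1. Itgam, which encodes CD11b, stood at 123, 59.5 and 108 CPM, but 68.7% of its exons overlap another gene on the same strand, so its reads are uncertain. In the monocyte list, expressed for 15 of 18 genes, Lyz2 was at 321, 297 and 295 and Irf8, a factor of monocyte and dendritic fate, at 102, 176 and 170.2 CPM, whereas Adgre1, which encodes F4/80, was at 2.31, 1.94 and 2.398 CPM.

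Lymphoid priming genes were expressed for 21 of 22 members. Dntt stood at 1022, 780.0 and 879 CPM, the highest per kb of this list after Ighm, with 389.9 ± 53.03 CPM per kb. Il12a and Gcnt2 were at 107, 95.3 and 95.9 and 488, 398 and 486 CPM. Rag2 was at 21.2, 17.4 and 18.5 CPM and Rag1, its partner in receptor gene recombination, at 2.72, 3.38 and 2.69 CPM. Of the genes of committed B cells, Pax5 stood at 0.133, 0.333 and 0.0549, Ebf1 at 0.819, 1.51 and 1.37 and Cd22 at 0.476, 0.685 and 0.531 CPM. Of 14 B cell genes 7 were expressed, and the highest per kb was Cd79b, a chain of the B cell receptor, at 55.4, 42.5 and 49.2 CPM. Of the genes of T cells, Cd3e stood at 0.438, 0.489 and 0.567, Cd3d at 0.0572, 0.372 and 0.201 and Bcl11b at 0.362, 0.293 and 0.8603 CPM. From the T and NK list, 6 of 19 genes were expressed, among them Nkg7, a granule protein gene, at 177, 203 and 159 and the kinase Lck at 50.4, 53.9 and 44.8 CPM.

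In the erythroid list 19 of 22 genes were expressed, with a median of 10.8 CPM. Carbonic anhydrase 2, Car2, an early gene of this lineage, stood at 1166, 1103 and 1246 CPM, or 484 CPM per kb, and Car1 was at 93.9, 151 and 153. Gata1 stood at 27.5, 32.5 and 33.8 and Klf1, the factor of erythroid commitment, at 4.897, 17.7 and 10.3 CPM. Of the genes of late red cells, Slc4a1, which encodes band 3, was at 0.972, 1.15 and 1.08, Alas2 at 1.54, 1.04 and 1.15 and the globin gene Hbb-bs at 17.9, 7.88 and 7.23 CPM. The pair Hbb-bs and Hbb-bt is nearly identical in sequence, as are Hba-a1 and Hba-a2, so the split of reads within each pair is uncertain. In the megakaryocyte list 15 of 20 genes were expressed. The transcription factor gene Nfe2 was at 382, 401 and 435, Itga2b, which encodes CD41, at 139.5, 175 and 204, Vwf, which marks platelet-biased stem cells, at 43.5, 49.4 and 77.5 and Pf4 at 31.04, 47.8 and 30.5 CPM, while the platelet receptor gene Gp6 was at 0.0191, 0.137 and 0.0549 CPM. Of 18 genes of the stromal and endothelial list 6 were expressed, led per kb by Pecam1 at 123, 109 and 126 CPM and the pericyte receptor gene Pdgfrb, with Col1a2 at 18.7, 11.8 and 21.5 CPM among them. Of the other 12, Adipoq and Bglap had 0 counts, and Cxcl12 stood at 0.324, 0.293 and 0.275, Lepr at 0.705, 0.176 and 0.421 and Col1a1 at 0.171, 0.489 and 0.421 CPM.

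Antibody transcripts stood out against this background. Ighm (chr12:113418558-113422730, minus strand), the constant region of the IgM heavy chain, was the most abundant gene by mean CPM at 9384, 3698 and 5081 CPM, and Igkc (chr6:70726435-70726966, plus strand), the kappa constant region, the highest per kb at 5721, 2038 and 2587 CPM. WT 1 was the highest for both and WT 2 the lowest. The immunoglobulin genes together took 2.08, 0.727 and 1.01% of the counts. Early lymphoid progenitors are known to transcribe Ighm in germline form, but rearranged variable segments are made by B cells and the plasma cells they become. Variable segments were found at 10 CPM or more for 22 heavy chain genes and 29 kappa genes in at least 1 library, and for 2 and 3 of these in all 3 libraries. Ighv11-2 was the highest heavy chain segment in each library, at 280.4, 58.4 and 137 CPM, and Igkv14-126 the highest kappa segment in each, at 988, 179 and 403 CPM. These 2 segments are known to recur together in antibodies of B-1 cells, a population that makes natural IgM. Igkv14-126 made up 42.9, 23.4 and 39.5% of the summed CPM of kappa segments. Most other segments were particular to a library in level: Igkv5-48 stood at 499, 0.137 and 18.6 CPM, Igkv12-89 at 42.8, 172 and 0.0183 and Ighv1-82 at 259.5, 4.597 and 3.203 CPM. The switched isotypes also differed, with Ighg2c at 70.9, 0.0196 and 0.494, Ighg2b at 7.91, 0.333 and 129 and Igha at 33.2, 0.802 and 81.8 CPM.

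**Figure D3:**
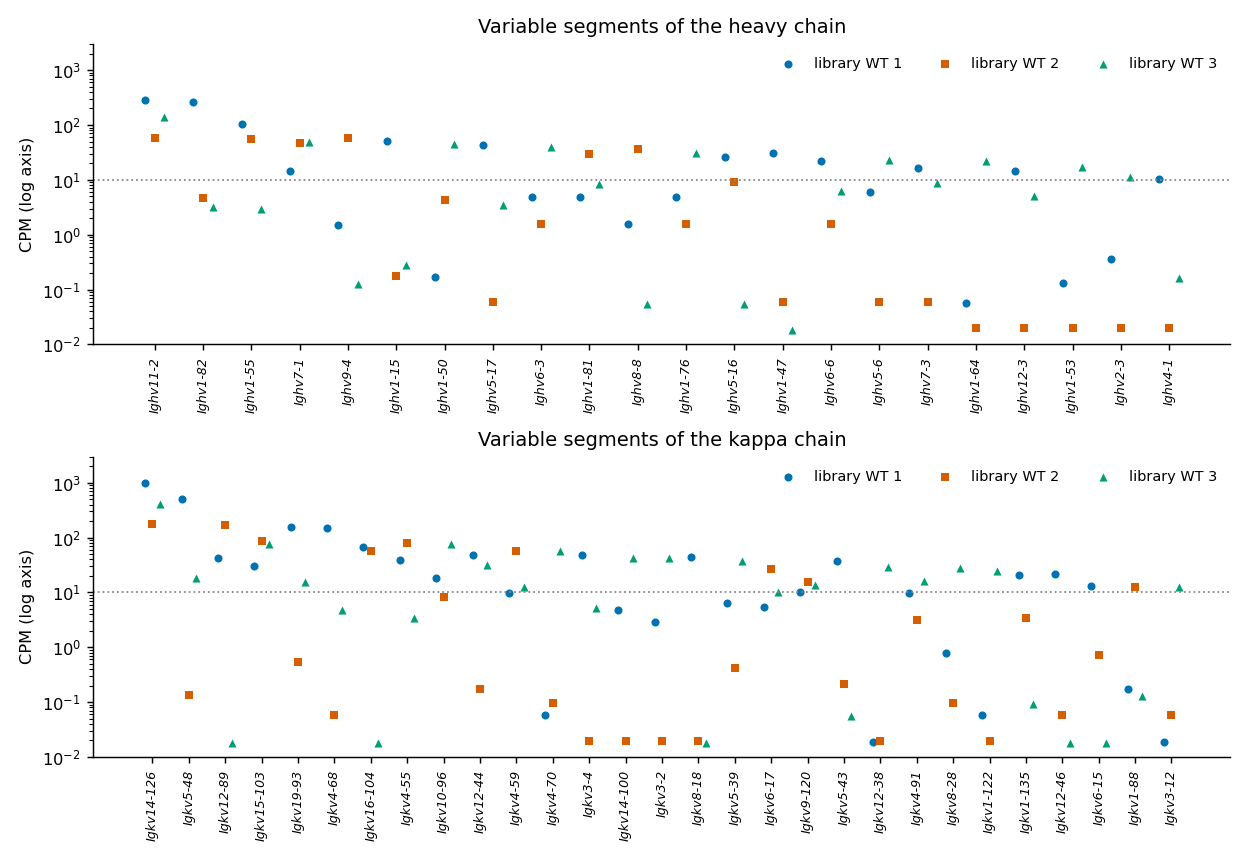
CPM of each immunoglobulin variable segment that reached 10 CPM (dotted line) in at least 1 wild-type library, on a log axis, sorted by mean, for the heavy chain (22 segments) and the kappa chain (29 segments). Ighv11-2 and Igkv14-126 were the highest of their chain in every library, while most others were high in a single library.

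Genes of antibody-secreting cells, a list added after the values had been seen, were present beside these transcripts. Jchain, which joins IgM into pentamers, was at 1556, 474 and 639 CPM and Mzb1, a folding factor for IgM, at 29.2, 10.2 and 13.2 CPM. Both were highest in WT 1 and lowest in WT 2, the order of Ighm and Igkc. So were Derl3 at 11.03, 5.26 and 5.84, Tnfrsf17, which encodes BCMA, at 4.29, 1.702 and 2.18 and Irf4 at 14.96, 6.08 and 10.7 CPM. The list also holds Prdm1 and Fkbp11, whose values are not given here. Bhlha15, a factor of secretory cells outside this list, had the same order, at 18.2, 4.87 and 11.3 CPM, but was named for its large range over the libraries. Sdc1, which encodes CD138, and Xbp1 did not share this order, at 21.5, 32.9 and 29.8 and 77.1, 103 and 78.7 CPM. Part of the Mzb1 exons (57.2%) overlap another gene on the same strand. In this list 16 of 20 genes were expressed, and its summed level was 17276, 6496 and 8891 CPM. Ighm and Igkc are members of this list and made up most of that sum in each library. Of the 14 genes of the B cell list, which marks B cells before the plasma cell stage, 7 were expressed, with a summed level of 103, 72.03 and 80.5 CPM. The B cell list holds no immunoglobulin constant region, so the sums do not compare the amounts of these cells. Ighd, the IgD constant region, was at 5.28, 4.68 and 5.18 CPM. The part of antibody-secreting cells in these transcripts was not tested.

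The 3 libraries were otherwise close. Over 9128 genes with a mean of 10 CPM or more, the median gap between the highest and the lowest library was 0.29 on the log2 scale, or 1.23-fold. The gap exceeded 1, a 2-fold difference, for 690 genes (7.56%). The 35 largest gaps were all of immunoglobulin genes, and 43 of the 46 immunoglobulin genes in this set exceeded 1. Of the other 647, 2 exceeded 2, the unnamed transcript Gm43305 at 12.5, 55.97 and 54.6 CPM and 1700024P16Rik at 37.2, 7.41 and 36.4 CPM. WT 1 was the library apart: it was the lowest for 611 of the 690 and WT 2 the highest for 567. Without WT 1 the count of 690 fell to 56, without WT 2 it was 228, and without WT 3 it was 640. Lists differed in their gap. The median was 0.18 for housekeeping genes and 0.19 for genes of innate sensing and interferon response, against 0.97 for the neutrophil list and 0.79 for the list of mast cells, basophils and eosinophils.

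**Figure D4:**
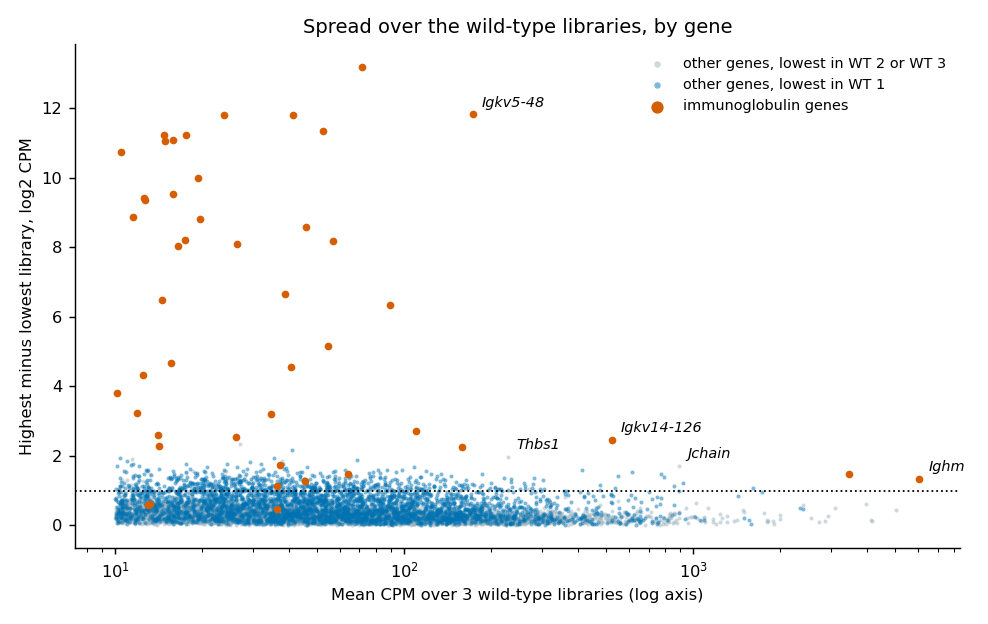
Difference between the highest and the lowest wild-type library in log2 CPM against the mean CPM (log axis) for 9128 genes, with immunoglobulin genes in orange and a dotted line at 1. Most genes lie under the line, most of the 690 above it outside the immunoglobulin loci were lowest in WT 1, and immunoglobulin genes have the largest gaps, whose size depends on the added part of a count where a library had 0 counts.

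By the rule for the largest gaps outside the immunoglobulin genes, 12 genes are named. Thbs1, a matricellular protein of platelets and stroma, stood at 304, 77.2 and 302 CPM, lowest in WT 2. Bhlha15 and Gbp4, an interferon-induced GTPase at 48.3, 14.1 and 50.6 CPM, were also lowest in WT 2. The remaining 9, Jun, Plbd1, H2afx, Klf1, Cox5a, Ssbp4, Arsb, Ltb and Pkmyt1, were all lowest in WT 1 and highest in WT 2. Jun, an immediate early factor, was at 15.03, 57.8 and 33.7 CPM, the histone gene H2afx at 29.4, 109 and 68.3, the lymphotoxin gene Ltb at 17.3, 58.4 and 38.5 and Cox5a, a subunit of cytochrome oxidase, at 13.5, 47.9 and 26.01 CPM. Genes with a gap over 1 that were lowest in WT 1 had a median GC content of 52.2% in their transcript, against 48.9% for all genes of 10 CPM or more. In the tenth of genes with the highest GC content (57.0 to 73.7%), the median deviation from the mean of the libraries was -0.15 in WT 1, 0.12 in WT 2 and 0.06 in WT 3 on the log2 scale, while in the tenth with the lowest it was within 0.02 of 0 in each. GC content thus moved with the difference of WT 1, and its part in it was not tested. Across genes, which are not independent replicates, the log2 values of WT 1 and WT 2 correlated with a Pearson r of 0.957 without the immunoglobulin genes, WT 1 and WT 3 with 0.969 and WT 2 and WT 3 with 0.983 (9082 genes).

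To show where wild-type LSK cells differ from the rest of the series, their mean was set against the mean of the 4 mutant groups with limma, for 13927 genes at 1 CPM or more in at least 3 of the 15 libraries. At a Benjamini-Hochberg adjusted p below 0.05, 26 genes (0.187%) differed, 17 higher (0.122%) and 9 lower (0.0646%) in the wild type, and 1192 had an unadjusted p below 0.05. The split was 17 higher and 5 lower when libraries were scaled by total counts, and 30 higher and 49 lower after quantile normalization. The LSK marker genes did not pass, with adjusted p of 0.826 for Kit, 0.881 for Ly6a, 0.841 for Cd34 and 0.963 for Flt3, nor did Nras (0.937) or Tet2 (0.896). Tet2 stood at 32.3 to 76.5 CPM in the 9 libraries labelled Tet2(-/-), so counts over the whole gene do not check its deletion. Of 606 listed genes tested, 3 passed, Thbs1 and the collagen gene Col1a2 higher and the chemokine receptor Ccr2 lower in the wild type, and 97 had an unadjusted p below 0.05. Their median difference was -0.04, against 0.01 for all genes tested.

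Thbs1 (chr2:118111876-118127133, GRCm38) was the clearest difference. Against its wild-type level of 304, 77.2 and 302 CPM, the 12 mutant libraries ranged over 0.916 to 29.9 CPM (median 2.38), so that every wild-type library exceeded every mutant one. The difference was 6.12 ± 0.60 (log2, SE) with an adjusted p of 0.000891 in limma, and of the 26 genes it was the single one called without each library in turn and under the other 11 settings tried. Gm13986, a transcript that runs the other way from a start 674 bases upstream of that of Thbs1, was also higher in the wild type, at 11.8, 3.78 and 9.17 CPM against 0.0165 to 0.759 CPM (median 0.129) in the mutants. Lmo7, a LIM domain protein of cell junctions, stood at 14.7, 6.59 and 18.2 CPM against 0.404 to 4.57 CPM (median 1.12), a difference of 3.52 ± 0.51. Arntl, which encodes the clock factor BMAL1, was at 57.03, 36.5 and 54.2 CPM against 12.96 to 31.5 CPM (median 18.03), a difference of 1.35 ± 0.22. Both had all wild-type libraries above all mutant ones, which the rule for naming called genes required. Of the 17 genes called higher, 5 overlapped. Col1a2 was at 18.7, 11.8 and 21.5 CPM against 1.42 to 18.9 CPM (median 2.801), with overlap: 1 leukemic library, at 18.9 CPM, lay within the wild-type range, and the other 11 mutant libraries lay below it.

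Of the 9 genes lower in the wild type, 4 met the rule for naming called genes. That rule asked for no overlap with the mutants and a mean of 10 CPM or more on the higher side. Among the rest, Gbp2b and Acvrl1 overlapped the mutants, and Bst1 was at 1.31 CPM or less in every library. Tjp1, which encodes the tight junction protein ZO-1, stood at 4.97, 5.46 and 2.76 CPM against 8.44 to 101 CPM (median 21.1) in the mutants, a difference of -2.61 ± 0.31 with an adjusted p of 0.00302 in limma. Lgals3, which encodes galectin 3 of macrophages, was at 5.32, 8.16 and 7.49 CPM against 12.5 to 67.1 CPM (median 36.3), a difference of -2.08 ± 0.31. March1, a ubiquitin ligase that removes class II MHC from the surface, was at 1.35, 2.25 and 2.18 against 3.24 to 33.6 CPM (median 9.299), a difference of -2.33 ± 0.42 with an adjusted p of 0.0454 in limma. Ccr2, the receptor by which monocytes leave the marrow, was at 40.5, 37.7 and 42.3 CPM against 64.9 to 329 CPM (median 129), a difference of -1.62 ± 0.29 with an adjusted p of 0.0449 in limma. For March1 and for Ccr2 the call held in 5 of 15 fits that left out 1 library, with adjusted p of up to 0.483 and 0.33, and was lost with scaling by total counts, a filter of 5 CPM or an added count of 0.1. Without each wild-type library in turn, neither was called, and nor was Lgals3. No wild-type library of these 4 genes overlapped the mutants, which the rule for naming them required, so it adds no support. Of the 9 genes called lower, 4 overlapped. Over all genes tested, 116 (0.833%) were without overlap in either direction. In the dendritic cell list, which holds the class II MHC genes, the median difference was -1.52. In limma 12 of its 15 genes had an unadjusted p below 0.05, against 1192 of all 13927 tested, but no gene passed the adjusted test. No immediate early gene passed either, with a median of -0.86 and 13 of 22 genes at an unadjusted p below 0.05 in limma. Both lists were chosen with earlier results of these data known, so these counts are not independent support. The list of antibody-secreting cells, chosen after its values had been seen, lay the other way, with a median of 1.53 and 13 of 20 genes at an unadjusted p below 0.05, and no gene of it passed the adjusted test. Outside this list, the kappa variable segment Igkv4-55 was among the 26 genes, higher in the wild type with an adjusted p of 0.0499 in limma. It overlapped the mutants, and its call held in 3 of 15 fits that left out 1 library.

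**Figure D5:**
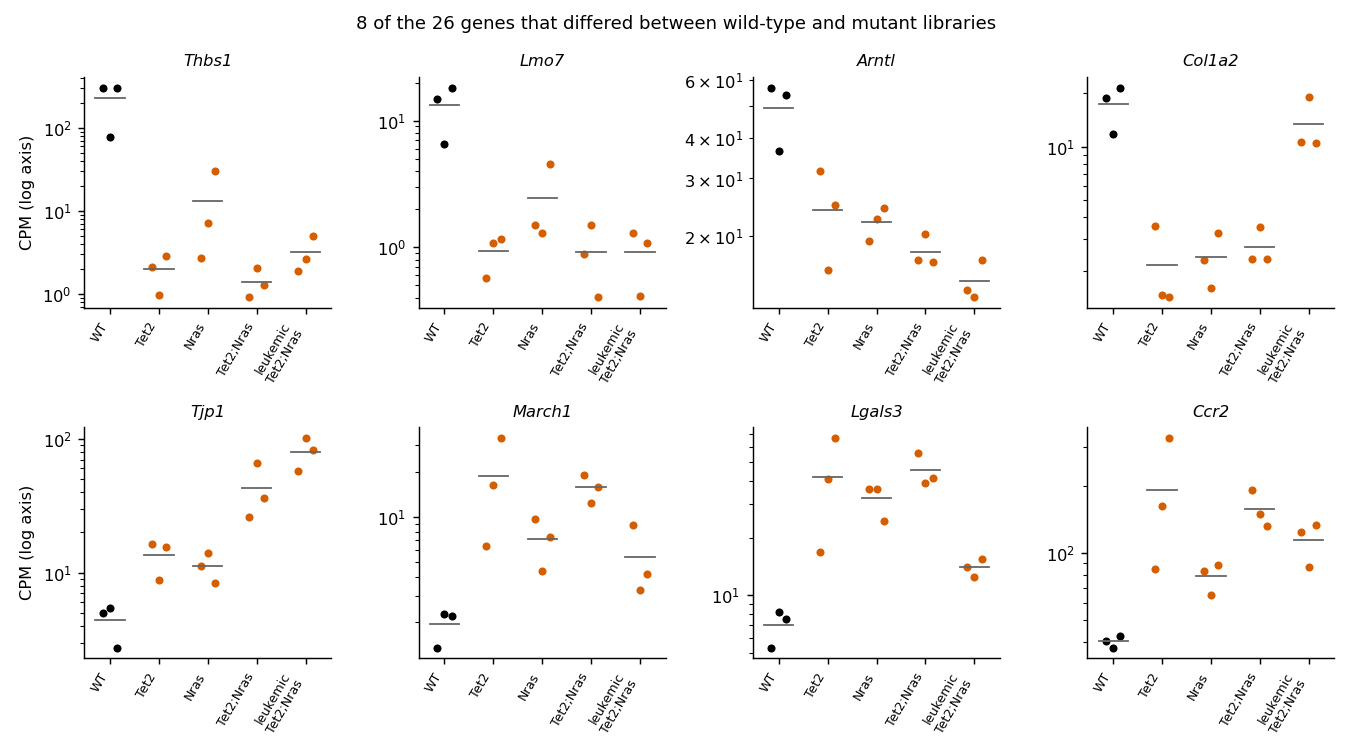
CPM of 8 of the 26 genes in every library, on a log axis, with 1 point per library and a line at the mean of each group; wild-type libraries are black and mutant ones orange. Thbs1, Lmo7 and Arntl lie higher in all wild-type libraries than in any mutant one, Tjp1, March1, Lgals3 and Ccr2 lie lower, and 1 leukemic library of Col1a2 lies within the wild-type range.

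These calls rest on few libraries. Without WT 3 the count fell from 26 to 1, without WT 1 to 5 and without WT 2 to 13, while without the first leukemic library it rose to 118. All wild-type libraries expressed Xist, at 366 to 490 CPM, and Ddx3y, a gene of the Y chromosome, did not exceed 0.476 CPM in them, whereas 5 of the 12 mutant libraries had Ddx3y at 91.5 to 259 CPM. Without those 5 libraries 788 genes differed, 378 higher and 410 lower in the wild type, the 26 among them. Antibody transcripts moved with the groups as well, with Ighm at 3698 to 9384 CPM in the wild type and 523 to 6340 CPM in the mutants, and Jchain at 474 to 1556 against 17.1 to 653 CPM. Their part in the differences was not tested.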

How the data were processed

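RNA of sorted LSK cells was measured in 15 libraries made with a stranded mRNA kit, per the labels' protocols. The authors deposited 1 table of log2 CPM for 44827 gene symbols. Its values return whole counts for 100.0% of entries (tolerance 1e-06) when 0.5 is taken to have been added to each count and 1 to each library size. That size was 1.04 to 1.10 times the total count in the wild-type libraries. The aligner STAR 2.4.0f1 and the packages limma 3.28.21 and edgeR 3.14.0 are named in the submitters' processing notes, as are bcl2fastq and the builds mm10 and NCBIM37. How reads were counted, on which annotation and with or without strand is not given in the sources used here. Low depth limits genes near the floor of 3 counts, and this floor covers counting error only.

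Groups came from the sample titles. Columns were matched to samples by the sample descriptions. The leukemic columns are named BMT, a label that their descriptions carry and do not spell out, and were numbered by the titles. The column N2-3 was taken as the second Nras(G12D) library because the other 2 of that group matched by name. CPM was 2 to the power of the deposited value. GENCODE M21 (GRCm38) gave positions, exon lengths and overlaps for the 43904 symbols (97.9%) that matched 1 gene, and RefSeq (GRCm38.p6) gave promoters for 13411 protein-coding genes with 1 listed start. Wild type and mutants were compared on the log2 values with limma 3.58.1 in R 4.3.3 (1 mean per group, contrast of the wild type with the mean of the 4 mutant groups, trended eBayes, 10 residual degrees of freedom, two-sided, Benjamini-Hochberg adjustment), a method checked on simulated data. Levels and spread in the wild type are descriptions with no test. Pairs of wild-type libraries differed by more than sampling noise, with a chi-square per degree of freedom of 26.1 to 62.6, so none was treated as a second copy of another.

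The 28 gene lists, the members and the rules for naming genes were chosen with earlier results of these data known. Per list, the rule named the 5 highest genes per kb and the 3 lowest, and beyond the lists the 20 highest by CPM, the 10 highest per kb, the 12 with the largest range, and called genes without overlap and with a mean of 10 CPM or more on the higher side. Unnamed models, pseudogenes and mitochondrial genes were left out of this naming. Other genes, the lists of antibody-secreting cells and of class I MHC, and the ranking of ranges outside the immunoglobulin genes were chosen after their values had been seen. The alternatives were other thresholds, scalings, added counts, array weights, a replicate block, subsets of the mutants and the loss of each library. Some listed genes count in the totals and are not reported here by name.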

Additional observations from a re-analysis of the deposited data

How the results depend on the processing

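The number of expressed genes in WT (12472) stayed between 9933 and 13650 under thresholds of 0.5, 2 and 5 CPM, in any library, with scaling by total counts and without each wild-type library. The count of listed genes expressed (561 of 670) was 563 to 572 with scaling by total counts, by the median over libraries and without each wild-type library. The count of genes with a range over 1 was 254 at a minimum mean of 50 CPM, 1404 at 1 CPM, 537 with scaling by total counts, and 56 to 640 when a wild-type library was left out. The 26 genes that differed from the mutants were 15 with an added count of 0.1 and 28 with 2, 63 without a filter, 12 with a filter of 5 CPM, 22 with scaling by total counts, 42 with median centring, 79 with quantile normalization, 2886 with array weights, 47 without the leukemic group and 788 without the 5 libraries with Y-linked expression. When a library was left out the count ranged from 1 to 118. Fewer libraries lower the power, and beyond that the cause was not tested. Scaling by total counts moved the median difference of all genes from 0.01 to 0.12. The 26 called genes were each refitted under these settings and without each library. Over all these refits, which are not separate genes, the call was kept in 515 and lost in 154, and none changed sign. Count models were not run.

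The replicate numbers are not said to pair the libraries. Same-numbered libraries of different groups had correlations of their deviations from -0.35 to 0.29 (median 0.07, 30 pairs), and 8 of 15 libraries correlated best with their own number. With the replicate number as a block, 36 genes differed.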

Other observations

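All 10 genes of a class I MHC list chosen after the values had been seen were expressed, 9 of them at 100 CPM or more. The heavy chain genes H2-K1 and H2-D1, whose near-identical sequence makes the split of reads uncertain, stood at 1835, 2599 and 2555 and 1100.2, 2118 and 1985 CPM, lowest in WT 1, and the peptide transporter genes Tap1 and Tap2 at 249, 401 and 457 and 461, 333 and 407 CPM. Of the class II MHC genes, H2-Ab1 was at 91.5, 184 and 208 CPM, or 62.8 CPM per kb of exon against 793 for H2-K1, while their invariant chain Cd74 was at 279, 283 and 308. Of 35 innate sensing and interferon genes 31 were expressed, 10 at 100 CPM or more, with a median of 28.4 CPM. Ly6e, an interferon-stimulated relative of Ly6a, was at 1191, 1201 and 1129.7, Ifitm3, which blocks virus entry, at 264, 256 and 199 and Tmem173, which encodes STING, at 191, 180.5 and 187 CPM. Among the Toll-like receptors, Tlr4 and Tlr2, which sense bacterial cell walls, stood at 25.8, 27.4 and 32.05 and 24.98, 24.4 and 32.4 CPM, and Tlr9, which senses bacterial DNA, at 0.133, 0.0587 and 0.0183 CPM.

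The pair Ighv11-2 and Igkv14-126 was also present in most mutant libraries. Ighv11-2 ranged from 0.0212 CPM, its value at 0 counts in library 1 of the Tet2(-/-) group, to 294 CPM in a leukemic library, and Igkv14-126 from 0.149 to 606 CPM in the same libraries. Among low genes, Gnas, which most tissues express, was at 0.438, 1.35 and 0.714 CPM, and 21.96% of its exons overlap genes on the other strand. Klf2 was at 0.438, 0.372 and 0.165 CPM with no such overlap. Exons of Jund (1.35, 2.68 and 1.41 CPM) and Sox4 (3.37, 11.1 and 4.89 CPM) overlap genes on the other strand for 52.6% and 54.6%. The part of the counting in these low values was not tested.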
